A study of Mus musculus with 24 samples.

Results

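The comparison set livers of mice that lacked Jnk1 in every cell (JNK1-/-, 3 arrays) against livers of control mice (JNK1f/f, 3 arrays), both after 28 d of bile duct ligation (BDL). These 6 arrays were taken by their titles from the 24 arrays of the study, and all 18820 genes with a measured symbol were examined. The study asked what Jnk1 does in the scarring of mouse liver, and its other groups were ligated livers of both genotypes at 48 h, livers that had lost Jnk1 in hepatocytes (JNK1Δhepa) at both times, and sham-operated control livers at both times, with 3 arrays each.

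All mice were males on the C57/BL6 background, 12 weeks old in the 28 d groups and 8 weeks old in the 48 h groups. The control mice carried floxed, undeleted Jnk1 alleles, and the JNK1Δhepa mice carried the same floxed alleles with Cre driven by an albumin promoter, which is active in hepatocytes. Per the labels' protocols, the JNK1-/- mice were bought from a breeder, whereas the floxed line came from another laboratory. The loss of Jnk1 and any other difference between these 2 lines cannot be told apart here, and no sham-operated JNK1-/- liver was analysed. The labels number the arrays of a group from 1 to 3 and do not say whether an array held 1 mouse or a pool. The p-values therefore measure the spread between arrays of a group, pooled over all groups of the study.

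Jnk1, with the gene symbol Mapk8, encodes a kinase that is switched on by stress and cytokines through the kinases Map2k4 and Map2k7. It phosphorylates Jun, a part of the AP-1 transcription factors, and signals in hepatocytes, hepatic stellate cells and macrophages. Ligation of the common bile duct stops bile flow, and the liver responds with cholestatic injury, growth of bile ductules, inflammation, and collagen laid down by stellate cells and portal fibroblasts.

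Values are log2 intensities per gene. A gene was called when its adjusted p from limma was under 0.05 in a model over all 24 arrays. Control livers ligated for 28 d varied more than any other group, with a median SD over genes of 0.187 (0.115 to 0.139 elsewhere) and 360 genes with an SD above 1 (9 to 161 elsewhere). Their replicate 3 had the highest levels of bile duct, stellate cell and collagen genes, as given below. The liver label was borne out by hepatocyte genes, with albumin (Alb) at 13.28 to 13.44 on the 6 arrays.

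After 28 d, 118 of 18820 genes (0.627%) were called between JNK1-/- and control livers, 81 higher (0.43%) and 37 lower (0.197%) in JNK1-/-. At least 2-fold differences made up 39 of them (0.207% of genes tested), with 28 higher (0.149%) and 11 lower (0.0584%). The higher genes were 68.64% of the calls, and 82.35% of 187 calls when each array was centred on its median. With array weights, in contrast, more calls were lower than higher, as given in the last section. The genes that rose most were Slc6a16, Cfap20dc, Tead2, Mmd2, Prelid2 and Mid1. The largest falls were those of an antibody light chain segment and of Igha, followed by Mapk8 itself, Gas2, Igsf23, Igkv6-23, the macrophage receptor Cd163, Epdr1 and Adamdec1. At an unadjusted p under 0.05, 2328 genes (12.4%) passed, 1251 higher and 1077 lower. The 2 groups of 3 did not overlap for 117 of the 118 called genes and for 2382 of all genes (12.7%), and the exception was Atp10d.

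These counts rest on the spread pooled over all 8 groups. The control group compared here varied more than the other groups, so the p-values may be too small. When limma was fitted on the 6 arrays alone, 1 gene was called, Slc6a16 (adjusted p = 7.21e-05), and 1170 had an unadjusted p under 0.05, among them all 118. The 118 were chosen by their difference on these same arrays, so their passing is no separate support. The count was 56 without JNK1-/- replicate 1, 78 without replicate 2 and 91 without replicate 3. It was 98 without control replicate 1, 413 without replicate 2 and 125 without replicate 3. A set of 37 genes was called in each of these 6 refits, 24 higher and 13 lower.

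**Figure D1:**
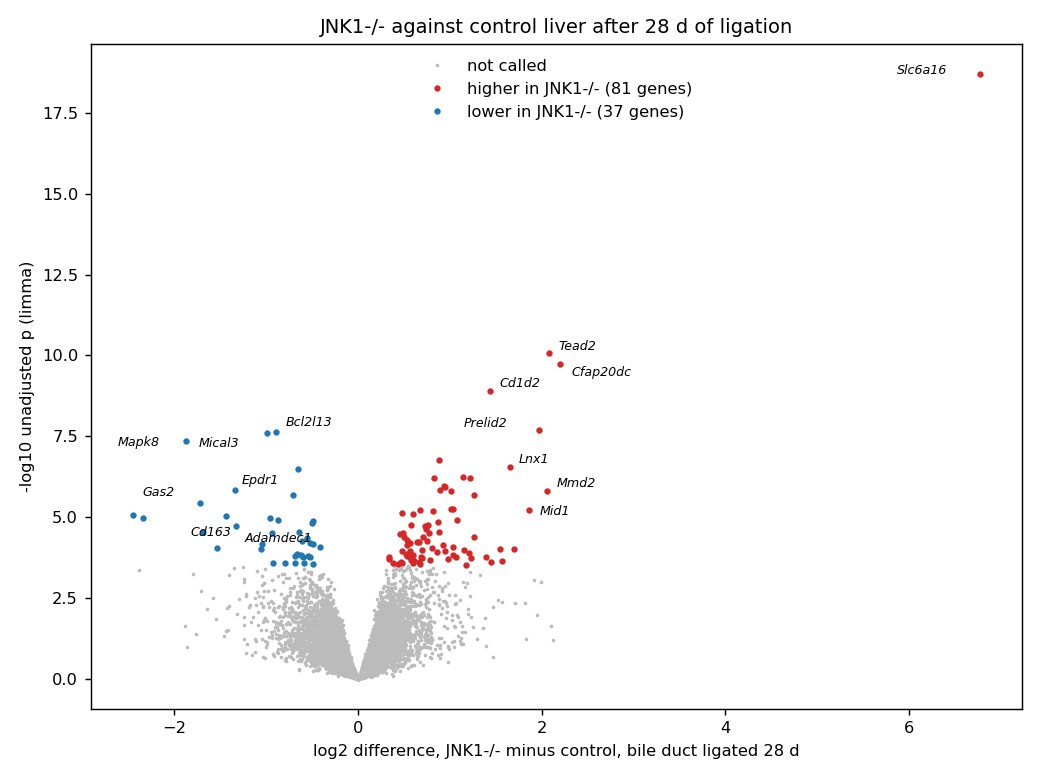
Each point is 1 of 18820 genes, with the log2 difference (JNK1-/- minus control, both ligated for 28 d) on the horizontal axis and -log10 of the unadjusted limma p on the vertical axis. Red and blue mark the 81 higher and 37 lower calls; Slc6a16 stands far to the right of the others at a difference of 6.78.

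The targeted gene was examined first. Mapk8 read 6.11, 5.18 and 5.61 on the JNK1-/- arrays and 7.67, 7.41 and 7.44 on the control arrays, with a sham mean of 7.53. Every JNK1-/- array lay below every control array. Mapk8 fell by 1.87 on the log2 scale (SE 0.217, adjusted p = 1.02e-04 by limma), a 3.66-fold lower level, and was called in each of the 6 refits. Whether the probes of Mapk8 fall inside the disrupted stretch is not stated by the labels. The other JNK genes were not called. Mapk9 (JNK2) differed by 0.15 (adjusted p = 0.445 by limma), and Mapk10 (JNK3) lay between 3.01 and 3.26 on all 6 arrays with a difference of -0.10 (adjusted p = 0.67 by limma).

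Of 19 measured JNK kinases, upstream kinases and scaffolds, Mapk8 was the single called gene, and 13 of 19 differences lay below 0, with a median of -0.10. The median over all genes tested was -0.01. Of all genes, 0.627% were called and 12.4% had an unadjusted p under 0.05, and the list counts below are to be read beside these shares. The list median was -0.04 without JNK1-/- replicate 1 and -0.06 without replicate 2, and 2 genes were called without JNK1-/- replicate 3 or control replicate 2. Map4k4, a kinase upstream of JNK, read 7.01, 7.03 and 7.67 in JNK1-/- and 8.26, 7.56 and 7.89 in control livers, with 1 overlap between the groups (difference -0.67, adjusted p = 0.137 by limma). Map3k6 differed by -1.03 (adjusted p = 0.186 by limma).

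Slc6a16, an orphan member of the family of sodium-coupled neurotransmitter and amino acid transporters, rose more than any other gene in this comparison. Its log2 intensity was 10.32, 10.93 and 10.66 on the JNK1-/- arrays and 3.92, 3.99 and 3.67 on the control arrays. The control values lay close to the lower quartile of all genes tested on those arrays, 3.85 to 3.88, while the JNK1-/- values lay above the upper quartile. The difference was 6.78 on the log2 scale (SE 0.186, adjusted p = 3.76e-15 by limma). The control values are not shown to exceed background, so no fold is given. The mean was 4.42 in sham-operated control liver and 4.08 in ligated JNK1Δhepa liver.

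The RefSeq start of Slc6a16 lies on chromosome 7, and its promoter is shown because no other gene separated the 2 groups as widely. The line below gives the 250 bases before that start, 5′ to 3′ on the gene's plus strand, at chr7:45240503-45240752 in the build GRCm38.p6. The AP-1 element searched for, TGANTCA, which reads the same on both strands, is not among these letters, so no base is in capitals.
Slc6a16: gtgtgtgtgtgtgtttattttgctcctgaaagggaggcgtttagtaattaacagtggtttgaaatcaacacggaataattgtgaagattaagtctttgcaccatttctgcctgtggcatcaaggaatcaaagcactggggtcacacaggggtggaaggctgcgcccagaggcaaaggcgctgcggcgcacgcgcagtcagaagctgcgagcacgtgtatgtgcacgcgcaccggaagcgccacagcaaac

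Tead2, a DNA-binding partner of the Hippo pathway co-activators Yap1 and Wwtr1, read 7.38, 7.60 and 7.66 in JNK1-/- livers and 5.14, 5.30 and 5.95 in control livers. The lowest JNK1-/- array stood well above the highest control array. Tead2 rose by 2.08 (SE 0.166, adjusted p = 8.22e-07 by limma). It was the single call among 14 measured Hippo genes and YAP targets, whose median difference was -0.29 and of which 13 lay below 0. Without control replicate 3 that median was -0.07, and without control replicate 2 there were 2 calls. The next by p were Ajuba (-1.34, adjusted p = 0.056), Tead1 (-0.66, adjusted p = 0.225) and Wwtr1 (-0.29, adjusted p = 0.23), none of them called by limma.

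Cfap20dc, named for its CFAP20 domain, read 7.08, 7.17 and 6.81 in JNK1-/- and 4.49, 4.71 and 5.26 in control livers. The groups were far apart, and the gene rose by 2.20 (SE 0.183, adjusted p = 1.13e-06 by limma). Mid1, a ubiquitin ligase that binds microtubules, read 10.07, 10.43 and 10.12 against 7.95, 8.74 and 8.35, a difference of 1.86 (adjusted p = 0.00414 by limma). Prelid2 read 7.57, 7.65 and 7.68 in JNK1-/- and 5.98, 5.45 and 5.53 in control livers, a rise of 1.98 (adjusted p = 6.78e-05 by limma). For each of Cfap20dc, Mid1 and Prelid2, every JNK1-/- array exceeded every control array.

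Mmd2, a member of the progestin and adipoQ receptor family, read 7.62, 7.16 and 7.32 in JNK1-/- and 5.34, 5.65 and 4.91 in control livers. It rose by 2.06 (SE 0.304, adjusted p = 0.00152 by limma). Its mean in sham-operated control liver was 8.18, above both ligated groups. Cd1d2, which encodes the second mouse CD1d lipid-presenting molecule and is a near copy of its neighbour Cd1d1, read 5.87, 5.54 and 5.84 against 4.39, 4.39 and 4.15. It rose by 1.44 (adjusted p = 5.86e-06 by limma), and how the probes divide signal between the 2 copies is not known here. Neto1, an auxiliary subunit of kainate receptors, read 4.57, 5.10 and 4.06 against 3.21, 3.53 and 3.19, a rise of 1.27 (adjusted p = 0.00174 by limma).

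Lnx1, a ubiquitin ligase that binds Numb, read 6.56, 6.58 and 5.40 in JNK1-/- and 4.43, 4.57 and 4.58 in control livers, with replicate 3 the lowest JNK1-/- array. It rose by 1.66 (SE 0.217, adjusted p = 5.24e-04 by limma). Asic5, an ion channel of the acid-sensing family that responds to bile acids, read 6.84, 7.15 and 6.23 in JNK1-/- and 5.20, 5.10 and 4.83 in control livers, with a sham mean of 6.27. It rose by 1.70 (adjusted p = 0.0259 by limma), and the call was lost without JNK1-/- replicate 1 or 2 or control replicate 3.

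The other 4 of the 14 genes with the largest rises were less stable. Cap2, a regulator of actin, differed by 1.57, Rab3b, a small GTPase of secretory vesicles, by 1.54, Rhbg, an ammonia transporter, by 1.45, and Myo7b, a brush border myosin, by 1.40. Their adjusted p-values by limma were 0.0424, 0.0259, 0.0441 and 0.0353. The calls of Cap2, Rab3b, Rhbg and Myo7b were all lost without control replicate 1 or without JNK1-/- replicate 1. Without JNK1-/- replicate 2, the calls of Cap2 and Myo7b were lost as well, and without JNK1-/- replicate 3 those of Rab3b, Rhbg and Myo7b. Control replicate 3 ended the call of Cap2 when left out. Rhbg read 7.29, 6.70 and 7.96 in JNK1-/- and 5.08, 6.37 and 6.16 in control livers, so the nearest arrays of the 2 groups were close.

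**Figure D2:**
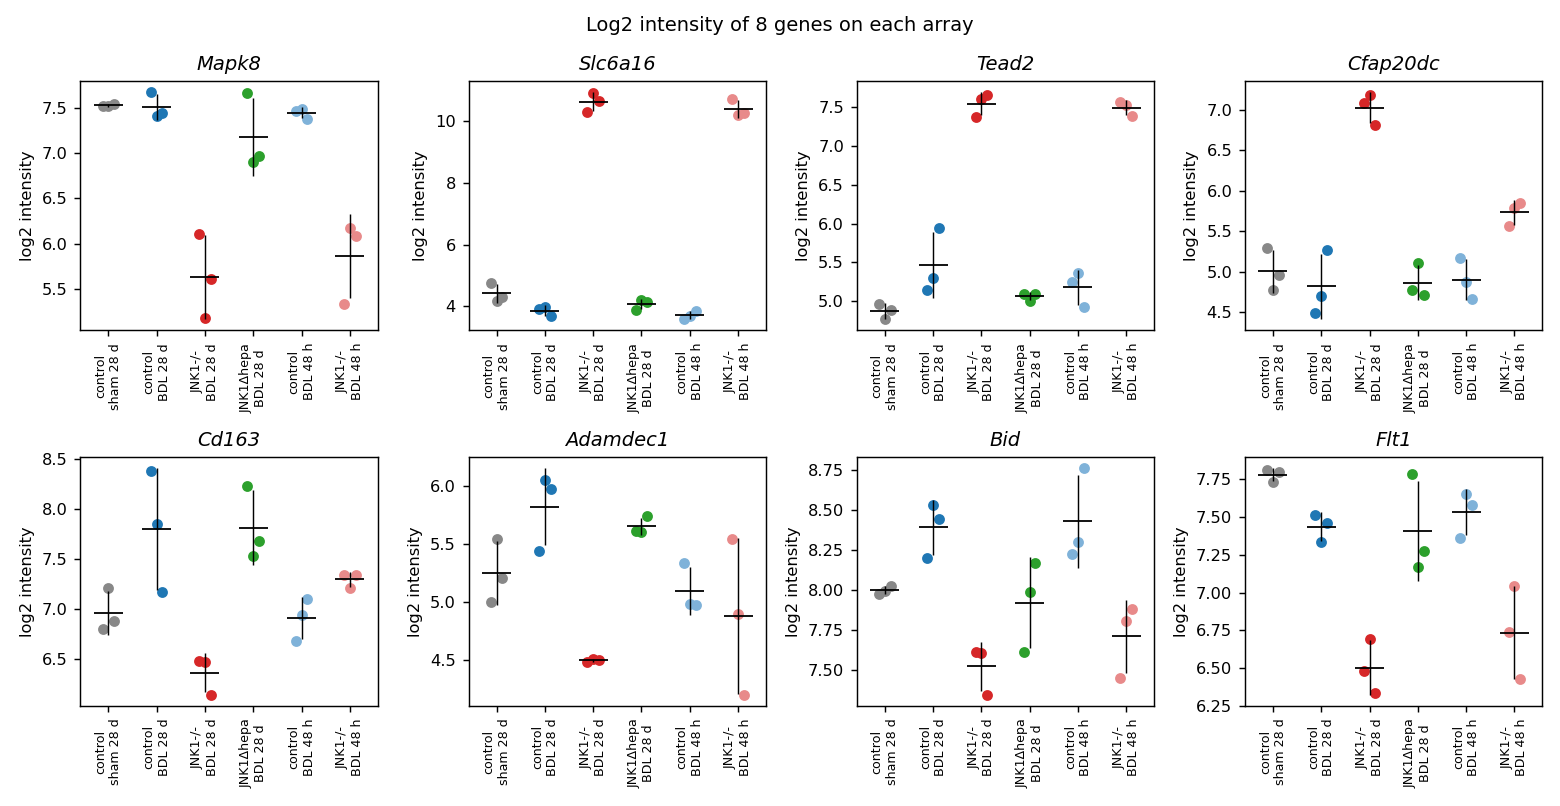
Log2 intensity of 8 genes (vertical axes) on each array of 6 groups, with the mean as a horizontal bar and the SD as a vertical bar (n = 3). In Mapk8, Slc6a16, Tead2, Bid and Flt1 the JNK1-/- livers stood apart from control at both 28 d and 48 h, while at 48 h Cd163 lay slightly higher in JNK1-/- livers (difference 0.39, not called) and Adamdec1 overlapped.

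Among the genes that fell, Gas2, a protein that links actin and microtubules, read 6.38, 6.34 and 6.38 in JNK1-/- and 7.60, 8.15 and 8.50 in control livers, a fall of 1.72 on the log2 scale (SE 0.271; difference -1.72, adjusted p = 0.00309 by limma). The 3 JNK1-/- arrays lay within 0.1 of each other. Epdr1, an ependymin-related lysosomal protein, read 4.66, 4.98 and 5.25 against 6.42, 5.88 and 6.63 (difference -1.34, adjusted p = 0.00152 by limma). Unc5a, a netrin receptor, averaged 4.19 (SD 0.0065, n = 3) against 5.15 (SD 0.383, n = 3) (difference -0.95, adjusted p = 0.00612 by limma). No array of one group reached the other group for Gas2, Epdr1 or Unc5a.

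A pair of mitochondrial BCL2-family genes and their neighbour fell together. Bid, which carries the signal of death receptors to mitochondria, read 7.61, 7.61 and 7.34 in JNK1-/- and 8.20, 8.53 and 8.44 in control livers, a difference of -0.87 (SE 0.150, adjusted p = 0.00654 by limma). Bcl2l13, a BCL2-like protein of the mitochondrial outer membrane, read 8.82, 8.73 and 8.83 against 9.95, 9.59 and 9.51, a difference of -0.89 (adjusted p = 6.78e-05 by limma). Mical3, an oxidoreductase that acts on actin, read 7.54, 7.77 and 7.48 against 8.68, 8.61 and 8.47 (difference -0.99, adjusted p = 6.78e-05 by limma). Bcl2l13, Bid and Mical3 follow one another on chromosome 6 with no other tested gene between them. Bid was the single call among 24 cell death regulators and p53 targets, whose median difference was -0.12 (-0.05 without control replicate 3 and -0.20 without control replicate 1). Bcl2l13 and Bcl2l15 are not in that list. Bcl2l1, which encodes BCL-XL, differed by -0.54 (adjusted p = 0.173 by limma).

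The calls of 5 other genes that fell, Igsf23, Flt1, Rnf225, Snord73b and Bmp10, were lost when 1 array was left out. Igsf23, an immunoglobulin superfamily gene, differed by -1.69 (adjusted p = 0.0117 by limma) and lost its call without JNK1-/- replicate 1 or 2. Flt1, the VEGF receptor 1 of endothelial cells, read 6.48, 6.69 and 6.34 in JNK1-/- and 7.52, 7.33 and 7.46 in control livers, a difference of -0.93 (adjusted p = 0.0122 by limma), and lost its call without JNK1-/- replicate 1 or 3. Rnf225 (-1.04) lost its call without control replicate 1 or JNK1-/- replicate 1 or 3. The small nucleolar RNA Snord73b (-1.06) lost its call without control replicate 1 or 3 or JNK1-/- replicate 2 or 3. Bmp10 (-0.92), a BMP ligand for endothelial receptors, kept its call only when control replicate 2 was the array left out. The call of 18 of the 28 genes with the largest changes held in each of the 6 refits.

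Macrophage genes were examined next. Cd163, the scavenger receptor for haemoglobin and haptoglobin on resident macrophages, read 6.48, 6.48 and 6.15 in JNK1-/- and 8.39, 7.86 and 7.17 in control livers, with a sham mean of 6.97. All JNK1-/- arrays lay below all control arrays, and Cd163 fell by 1.44 on the log2 scale (SE 0.242, adjusted p = 0.0056 by limma). Adamdec1, a metalloprotease-like protein known from macrophages and dendritic cells, read 4.49, 4.51 and 4.50 in JNK1-/- and 5.45, 6.06 and 5.98 in control livers, a fall of 1.33 (adjusted p = 0.0084 by limma). In whole liver, fewer cells of a type and less RNA per cell cannot be told apart.

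Cd163 was the single call among 15 measured Kupffer cell markers, of which 11 lay below 0, with a median of -0.20. That median was -0.06 without control replicate 3, -0.09 without JNK1-/- replicate 1 and -0.39 without JNK1-/- replicate 3, where 2 markers were called. C1qc (-0.58, adjusted p = 0.0757) and C1qa (-0.40, adjusted p = 0.255) were lower and Timd4 (0.48, adjusted p = 0.365) was higher in mean level, and none of the 3 was called by limma. Clec4f, which marks Kupffer cells and was picked outside the rule for named genes, averaged 9.75 in JNK1-/- and 9.67 in control livers. The mean level of the whole list above sham ran from 0.11 to 0.64 in JNK1-/- and from 0.46 to 0.61 in control livers, so the groups overlapped through JNK1-/- replicate 3. The part of cell numbers in the fall of Cd163 was not tested. Among 15 measured markers of recruited macrophages, limma called 0 (3 with an unadjusted p under 0.05, all lower, against 12.4% of all genes).

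Antibody genes, which the rule for named genes left out and which were chosen here after their values were seen, were among the genes that fell. Igha, the constant region of immunoglobulin A, read 5.69, 4.51 and 5.21 in JNK1-/- and 7.40, 7.13 and 7.91 in control livers, a difference of -2.34 (SE 0.399, adjusted p = 0.00596 by limma). A kappa light chain variable segment had the largest fall of all genes (-2.45, adjusted p = 0.00527). The segment Igkv6-23 (-1.54, adjusted p = 0.0247) was also called by limma, but not without control replicate 1 or 3 or JNK1-/- replicate 2 or 3. Segments of this family are similar in sequence and may share signal. In JNK1Δhepa livers, compared with the same control arrays, Igha differed by -1.73 (adjusted p = 0.0641) and the first of these segments by -2.39 (adjusted p = 0.0496 by limma). Set directly against JNK1Δhepa, the JNK1-/- difference was -0.61 for Igha (adjusted p = 0.459) and -0.06 for that segment (adjusted p = 0.963 by limma). Of 12 measured B and plasma cell markers limma called 0, with 3 below 0 at an unadjusted p under 0.05, and those 3 were Igkc (-1.40), Ighm (-1.02) and Jchain (-1.12). Without control replicate 2, Igkc (-1.78), Ighm (-1.54) and Jchain (-1.54) were called, with adjusted p-values of 0.0103, 0.000312 and 0.0157 by limma. Without JNK1-/- replicate 1, 1 of the 12 was called. The mean level of the 12 markers above sham was -0.14 to 0.15 in JNK1-/- and 0.04 to 0.43 in control livers, and the part of plasma cell numbers was not tested.

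Of 12 hepatocyte markers limma called 0 (2 with an unadjusted p under 0.05, both higher), with a median of 0.07, and 1 was called without control replicate 2. Single metabolic enzymes and related proteins were among the calls. Glo1, which detoxifies methylglyoxal, read 11.05, 11.04 and 11.20 in JNK1-/- and 9.79, 10.40 and 10.43 in control livers, a rise of 0.89 (SE 0.131, adjusted p = 0.00152 by limma). Acy1, an aminoacylase, read 7.96, 7.68 and 7.83 against 7.00, 7.12 and 7.34 (difference 0.67, adjusted p = 0.00414 by limma). Car8, a carbonic anhydrase-related protein, read 9.96, 9.76 and 9.92 against 8.70, 9.07 and 9.25 (difference 0.87, adjusted p = 0.00684 by limma). Glo1, Acy1 and Car8 were picked after their values were seen, and their calls held in each of the 6 refits.

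Cebpa, a transcription factor of hepatocyte identity, read 10.32, 9.91 and 9.83 in JNK1-/- and 9.29, 9.56 and 9.41 in control livers, with a sham mean of 10.49. It differed by 0.60 (adjusted p = 0.039 by limma) and was the single call among 20 nuclear receptors and liver transcription factors (median 0.06, and 0.01 without control replicate 3, 0.02 without JNK1-/- replicate 3 and 0.04 without JNK1-/- replicate 1). Ghr, the growth hormone receptor, read 11.30, 11.08 and 11.16 against 10.19, 10.83 and 10.70, with a sham mean of 11.88. It differed by 0.61 (adjusted p = 0.0417 by limma) and was the single call among 11 genes of growth hormone and STAT5 signalling. The calls of both Cebpa and Ghr were lost without control replicate 1 or without JNK1-/- replicate 1 or 2, that of Cebpa also without control replicate 3, and that of Ghr also without JNK1-/- replicate 3.

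Within the growth hormone list, 2 genes were higher and 4 lower in JNK1-/- livers at an unadjusted p under 0.05. Igfbp3, a carrier of insulin-like growth factors, read 6.56, 6.75 and 6.16 in JNK1-/- and 8.34, 7.50 and 8.37 in control livers, without overlap (difference -1.58, adjusted p = 0.145 by limma). Igfals, a partner of that carrier, differed by 0.89 (adjusted p = 0.154), and Igf1r, the receptor, by -0.69 (adjusted p = 0.219 by limma). The median difference of the list was 0.05. Its mean level relative to sham was lower in JNK1-/- livers (-0.76 to -0.51) than in control livers (-0.43 to -0.37), without overlap, so median and mean differed in sign. That level stood at -0.62 to -0.55 in JNK1Δhepa livers. With 3 arrays a group, list levels can separate by chance, and how many lists did so was not counted. The median was -0.03 without control replicate 1, 0.11 without control replicate 2, and 0.08, 0.01 and 0.02 without JNK1-/- replicates 1, 2 and 3. Without control replicate 2 limma called 3 genes of the list, Ghr, Igfals and Igf1r.

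Of 23 measured complement and coagulation genes, which hepatocytes secrete, 1 was called. At an unadjusted p under 0.05, 15 of the 23 were higher and 1 lower in JNK1-/-, against 1251 and 1077 of all 18820 genes. Proc, the precursor of the anticoagulant protein C, read 11.08, 11.16 and 11.20 against 10.69, 10.92 and 10.83 (difference 0.33, adjusted p = 0.0353 by limma), and its call held only without control replicate 2, where 3 genes of the list were called. Serpinc1, which encodes antithrombin, differed by 0.31 (adjusted p = 0.069), F13b by 0.35 (adjusted p = 0.118) and Serpind1 by 0.46 (adjusted p = 0.138 by limma). The median of the list was 0.32, with 21 of 23 above 0. Its mean level relative to sham was -0.35 to -0.18 in JNK1-/- and -0.92 to -0.43 in control livers, so that the groups did not overlap. The median was 0.22 without control replicate 1, the array with the lowest level.

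Of 17 bile acid synthesis genes limma called 0 (5 with an unadjusted p under 0.05, all higher), and their median was 0.34 (0.22 without control replicate 3). Without control replicate 2, 3 of them were called, Acox2, Baat and Hsd3b7. Acox2, a peroxisomal oxidase of the bile acid side chain, differed by 0.34 (adjusted p = 0.108), and Baat, which conjugates bile acids, by 0.41 (adjusted p = 0.108 by limma). Hsd3b7 differed by 0.60 (adjusted p = 0.168). The mean level of the 17 genes relative to sham was -0.56 to -0.45 in JNK1-/- and -1.13 to -0.60 in control livers, without overlap. Among 19 bile acid and anion transporters limma called 0 (3 with an unadjusted p under 0.05, all higher), and the uptake carrier Slco2b1 had the smallest p (difference 0.69, adjusted p = 0.0655). Without control replicate 2, 2 of the transporters were called.

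Lipid synthesis genes showed no call. Among 19 cholesterol synthesis genes limma called 0 (1 with an unadjusted p under 0.05), and the median of 0.61 was 0.18 without control replicate 1. The level of that list relative to sham was -0.91 in control replicate 1, 0.38 in replicate 2 and 0.01 in replicate 3, and 0.23 to 0.52 in JNK1-/- livers. Dhcr7, the last enzyme of cholesterol synthesis, read 10.56, 10.27 and 10.31 in JNK1-/- and 8.75, 10.18 and 9.98 in control livers, which shows the same single low array. Among 29 genes of fatty acid and triglyceride synthesis limma called 0, and 1 without control replicate 2 or without JNK1-/- replicate 3. Of the 29, 8 had an unadjusted p under 0.05, all higher, against 12.4% of all genes in either direction. Srebf1, a regulator of that pathway, read 9.96, 9.94 and 9.26 against 8.64, 9.10 and 8.75 (difference 0.89, adjusted p = 0.106 by limma).

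Collagen and stellate cell genes, the subject of the study, gave no call. Among 22 fibrillar and associated collagens limma called 0 (1 with an unadjusted p under 0.05, Col6a2, difference -0.55, adjusted p = 0.248), and 20 of 22 differences lay below 0 with a median of -0.22. The median was 0.23 without control replicate 3, -0.60 without control replicate 1 and -0.40 without control replicate 2, where 1 collagen was called. Without JNK1-/- replicates 1, 2 and 3 it was -0.09, -0.13 and -0.52. The level of that list above sham was 0.00, 0.23 and 1.49 in control replicates 1, 2 and 3, and 0.03, 0.12 and 0.83 in the JNK1-/- replicates, so the groups overlapped. Dcn, the collagen-binding proteoglycan decorin, read 11.02, 11.25 and 11.63 in JNK1-/- and 11.61, 11.51 and 11.99 in control livers (difference -0.40, adjusted p = 0.489 by limma).

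Of 22 stellate cell and myofibroblast markers limma called 0 (3 with an unadjusted p under 0.05, all lower, against 12.4% of all genes). In all, 21 of 22 lay below 0 with a median of -0.48. Without control replicate 3 that median was -0.04. Ecm1, an extracellular matrix protein of stellate cells and hepatocytes, read 8.57, 8.80 and 8.97 in JNK1-/- and 9.65, 9.52 and 9.62 in control livers, where the groups did not overlap (difference -0.81, adjusted p = 0.248 by limma). Pdgfra, a receptor for platelet-derived growth factor, differed by -0.68 (adjusted p = 0.395). The stellate cell list stood at -0.37, 0.01 and 1.18 in control replicates 1, 2 and 3 relative to sham, and between -0.59 and 0.14 in JNK1-/- livers.

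The same control array stood out in bile duct genes. Among 16 cholangiocyte markers limma called 0, and 0 had an unadjusted p under 0.05. Krt19, the bile duct keratin, read 6.23, 5.57 and 6.63 in JNK1-/- and 5.96, 6.14 and 8.95 in control livers, so that control replicate 3 was far above the other 5 arrays. The list median was -0.41, and 0.30 without that array, -0.73 without control replicate 1 and -0.69 without control replicate 2. Among 21 matrix proteases and their inhibitors limma called 0 (7 lower and 1 higher at an unadjusted p under 0.05), with a median of -0.34 that was -0.13 without control replicate 3, -0.19 without JNK1-/- replicate 1 and -0.56 without JNK1-/- replicate 3. Leaving out JNK1-/- replicate 3 or control replicate 1 or 2 gave 1 call. Plau, the urokinase activator of plasminogen, differed by -0.74 (adjusted p = 0.134), and Mmp19 by 0.92 (adjusted p = 0.165 by limma). Among 34 genes of the TGF-beta and BMP pathway limma called 0 (3 higher and 2 lower at an unadjusted p under 0.05), and Inhbc, a hepatocyte activin subunit, had the smallest p (difference 0.81, adjusted p = 0.0556), and 1 gene of the pathway was called without control replicate 2 or 3.

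**Figure D3:**
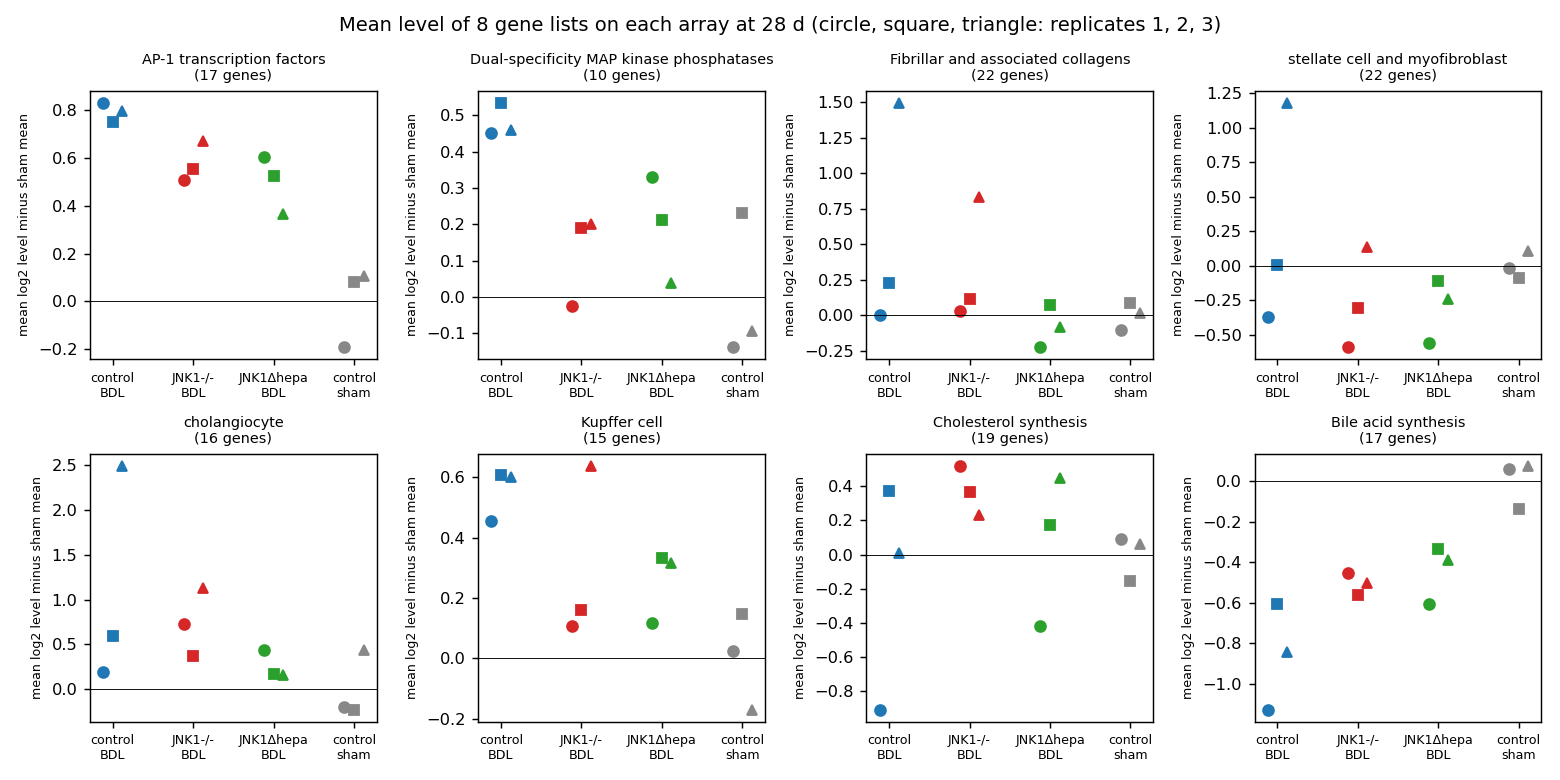
Mean log2 level of 8 gene lists on each array at 28 d, relative to the mean of the 3 sham arrays (vertical axes), with circles, squares and triangles for replicates 1, 2 and 3. Control replicate 3 (triangle) stood highest for collagens, stellate cell and cholangiocyte genes, at 1.49, 1.18 and 2.50. The ligated groups of control and JNK1-/- did not overlap for AP-1 factors, dual-specificity phosphatases and bile acid synthesis genes. In these lists limma called 0 genes, and how many of all lists separate in this way was not counted.

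The transcription factors that JNK acts on and their feedback phosphatases were examined as lists. Among 17 AP-1 factors limma called 0 (2 with an unadjusted p under 0.05, both lower), and the median difference was -0.24. Fosl2 read 7.48, 7.98 and 7.92 in JNK1-/- and 8.82, 8.34 and 8.13 in control livers (difference -0.64, adjusted p = 0.331 by limma), and Jdp2, a JUN dimerization partner, differed by -0.35 (adjusted p = 0.268). The mean level of the list above sham was 0.51 to 0.67 in JNK1-/- and 0.75 to 0.83 in control livers, without overlap, and 0.37 to 0.60 in JNK1Δhepa livers. The median difference stayed between -0.24 and -0.19 in the 14 alternatives tried. Jun itself, named here after its value was seen, differed by 0.04 (adjusted p = 0.977 by limma).

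Among 10 dual-specificity MAP kinase phosphatases limma called 0 (3 with an unadjusted p under 0.05, all lower), yet all 10 differences lay below 0, with a median of -0.30. Dusp1, an early-induced phosphatase of JNK and p38, read 9.59, 10.09 and 9.74 in JNK1-/- and 10.56, 10.49 and 10.04 in control livers, with 1 overlap (difference -0.56, adjusted p = 0.289 by limma). Dusp4 read 4.91, 4.88 and 4.67 against 5.53, 5.66 and 5.24 (difference -0.66, adjusted p = 0.43). The level of the list above sham was -0.02 to 0.20 in JNK1-/- and 0.45 to 0.53 in control livers, and 0.04 to 0.33 in JNK1Δhepa livers. At 48 h the same list ran from -0.25 to 0.52 and from 0.20 to 0.58, so the groups overlapped there.

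The promoters of the called genes were searched for the AP-1 element TGANTCA in the 250 bases before each RefSeq start. It was found for 4 of 60 higher genes with a promoter (6.67%), 0 of 29 lower genes and 1029 of all 14749 genes (6.98%). The 4 genes were Acadsb, BC004004, Ghr and Lnx1, and a match describes the letters only. The promoters of 3 of them follow because they are called genes that hold the element, which is in capitals. Build GRCm38.p6 places them at chr7:131410351-131410600 on the plus strand for Acadsb, an acyl-CoA dehydrogenase, and on the minus strand at chr15:3581843-3582092 for Ghr and chr5:74702904-74703153 for Lnx1. Each is written 5′ to 3′ along its gene.
Acadsb: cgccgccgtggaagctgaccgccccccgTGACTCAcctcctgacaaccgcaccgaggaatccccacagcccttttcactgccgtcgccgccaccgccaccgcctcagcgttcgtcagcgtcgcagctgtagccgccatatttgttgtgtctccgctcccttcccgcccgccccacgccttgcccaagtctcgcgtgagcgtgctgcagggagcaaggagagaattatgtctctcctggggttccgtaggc
Ghr: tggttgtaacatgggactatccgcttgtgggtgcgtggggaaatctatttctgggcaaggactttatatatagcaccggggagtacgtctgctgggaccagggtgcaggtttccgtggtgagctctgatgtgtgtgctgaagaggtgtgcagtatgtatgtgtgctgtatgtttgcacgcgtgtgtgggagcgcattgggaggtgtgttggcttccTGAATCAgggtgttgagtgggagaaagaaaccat
Lnx1: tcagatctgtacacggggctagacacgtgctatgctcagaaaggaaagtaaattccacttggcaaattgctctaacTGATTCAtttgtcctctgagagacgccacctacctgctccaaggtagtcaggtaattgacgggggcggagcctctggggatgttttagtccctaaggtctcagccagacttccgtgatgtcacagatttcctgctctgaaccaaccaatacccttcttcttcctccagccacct

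Whether the genotype difference at 28 d was already present at 48 h was examined on separate arrays. Both comparisons came from the same model, in which a gene has the same pooled spread at both times, so their calls are not independent. At 48 h limma called 433 genes (2.3%) between JNK1-/- and control livers, 225 higher (1.2%) and 208 lower (1.11%). Of the 118 genes called at 28 d, 41 (34.75%) were called at 48 h in the same direction, 28 higher and 13 lower, and 0 in the opposite one. They made up 9.47% of the 48 h calls. When each comparison was fitted on its own arrays alone, 1 gene was shared, and the 48 h count was 121. The 48 h count was 189 without control replicate 1 at 48 h, 161 without replicate 2 and 234 without JNK1-/- replicate 1.

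The shared genes included most of those with the widest separation. Slc6a16 differed by 6.78 at 28 d and 6.70 at 48 h, Tead2 by 2.08 and 2.32, Prelid2 by 1.98 and 2.64, Lnx1 by 1.66 and 1.96, and Mid1 by 1.86 and 1.53. Asic5 differed by 1.70 at 28 d and 3.35 at 48 h. Atp10d, a phospholipid flippase, differed by 1.23 and 2.31, and Abcc6, a liver transporter needed to prevent ectopic calcification, by 1.15 and 1.14, although at 28 d the call of Atp10d was lost without any of JNK1-/- replicates 1 and 2 and control replicates 2 and 3, and that of Abcc6 without any JNK1-/- array or control replicate 3.

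Among the genes that fell at both times, Gas2 differed by -1.72 at 28 d and -1.94 at 48 h, Igsf23 by -1.69 and -1.74, and Mapk8 by -1.87 and -1.58. Bcl2l13 (-0.89 and -0.94), Mical3 (-0.99 and -0.89), Bid (-0.87 and -0.72), Flt1 (-0.93 and -0.80), Epdr1 (-1.34 and -0.78) and Unc5a (-0.95 and -0.76) were likewise called at 28 d and at 48 h.

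**Figure D4:**
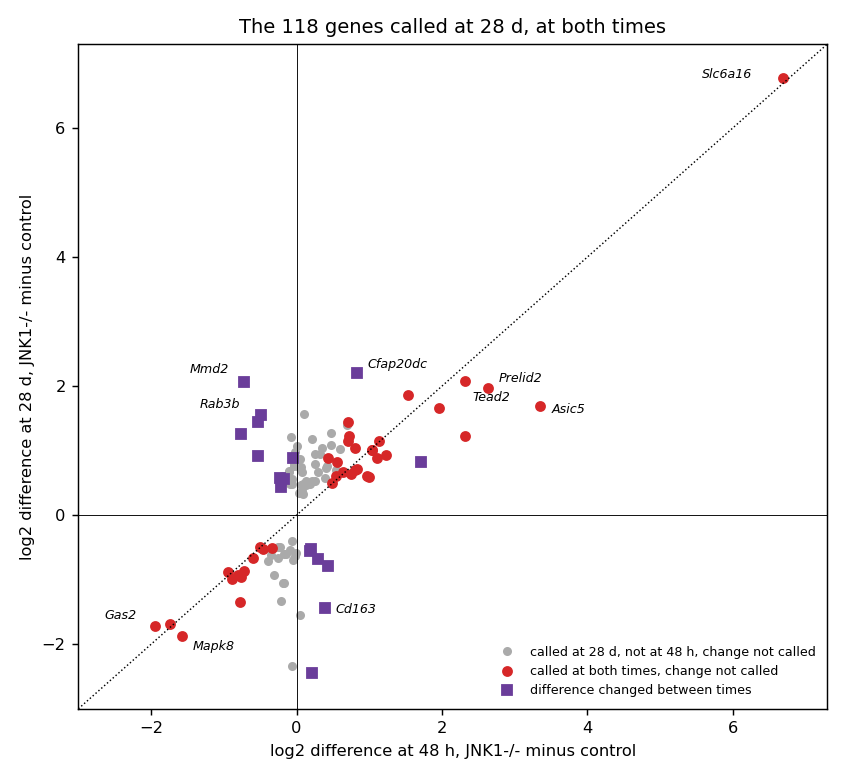
Log2 difference between JNK1-/- and control livers at 48 h (horizontal axis) and 28 d (vertical axis) for the 118 genes called at 28 d, with the dotted line at equal differences. Slc6a16, Tead2, Prelid2, Gas2 and Mapk8 lie near the line, while the purple squares, such as Mmd2, Rab3b and Cd163, mark the 17 genes whose difference changed between the times.

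The change of the genotype difference between the times was tested directly as an interaction. The 28 d mice were 12 weeks old and the 48 h mice 8 weeks old, so time of ligation and age cannot be told apart. For the interaction limma called 140 genes (0.744%), 78 with a larger value at 28 d (0.414%) and 62 with a smaller one (0.329%). On the 12 arrays concerned alone it called 0, with 1980 genes at an unadjusted p under 0.05. Without control replicates 1, 2 and 3 at 28 d it called 52, 442 and 574 genes, and without JNK1-/- replicates 1 and 3 at 28 d 32 and 73. Without control replicates 1 and 2 at 48 h it called 16 and 25, and without JNK1-/- replicates 1 and 2 at 48 h 48 and 81. Among the 118 genes called at 28 d, 17 had a difference that changed, 15 of them among the 77 not called at 48 h. The interaction uses the same arrays that gave these calls, so these are not independent counts.

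Mmd2 differed by 2.06 at 28 d and -0.73 at 48 h, a change of 2.79 (SE 0.430, adjusted p = 0.00785 by limma), and this call held without each of the 12 arrays. Cd163 differed by -1.44 and 0.39 (change -1.82, adjusted p = 0.0207 by limma), a call lost without control replicate 1 or 2 at 48 h. Cfap20dc differed by 2.20 at 28 d and 0.83 at 48 h, both called, with a change of 1.37 (adjusted p = 0.0207), which was lost in 5 of 12 refits: without control or JNK1-/- replicate 1 at either time, or control replicate 2 at 48 h. Obp2a, an odorant-binding lipocalin, differed by 3.59 at 48 h and -0.12 at 28 d, and Slc8a1, a sodium-calcium exchanger, by 3.30 and 0.22 (its second probe set had a 28 d difference of -0.20), and the changes of Obp2a and Slc8a1 held without each of the 12 arrays.

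JNK1-/- livers were set against JNK1Δhepa livers directly at 28 d. The JNK1Δhepa mice carried the floxed alleles, so the extent of Jnk1 loss and the line of mice cannot be told apart here either. Between JNK1-/- and JNK1Δhepa livers limma called 181 genes (0.962%), 107 higher (0.569%) and 74 lower (0.393%) in JNK1-/-. The count was 84 on the 6 arrays alone and 42 without JNK1Δhepa replicate 1. Mapk8 read 7.67, 6.90 and 6.97 on the JNK1Δhepa arrays, so the library labelled JNK1Δhepa replicate 1 was at the level of the control livers. The counts were also moved by leaving out JNK1-/- replicate 1 (82) or 3 (51) or JNK1Δhepa replicate 2 (82).

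Of the 118 genes called against control, 52 were called in the same direction against JNK1Δhepa, 34 higher and 18 lower. The JNK1-/- group is common to both comparisons, so these are not independent counts. Slc6a16 was higher in JNK1-/- than in JNK1Δhepa livers by 6.56 (adjusted p = 7.05e-15 by limma), and Tead2 by 2.48 (adjusted p = 3.56e-08). Mapk8 was lower by a log2 difference of -1.54 (adjusted p = 0.00114 by limma), and in JNK1Δhepa against control it differed by -0.33 (adjusted p = 0.513). Cd163 differed by -1.45 between JNK1-/- and JNK1Δhepa (adjusted p = 0.00479) and by 0.01 between JNK1Δhepa and control. The comparison with control used the same control arrays for both mutants, and 2 of the 118 genes were called for JNK1Δhepa as well, where limma called 43 genes in all (0.228%), 23 higher (0.122%) and 20 lower (0.106%).

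Akr1c18, Miox, Saa2 and Car3 differed widely between the mutants and were not called in JNK1-/- against control. Akr1c18, the 20-alpha-hydroxysteroid dehydrogenase, averaged 4.34 in JNK1-/-, 6.92 in JNK1Δhepa and 5.59 in control livers (JNK1-/- minus JNK1Δhepa -2.57, adjusted p = 4.42e-04 by limma). Miox, which breaks down inositol, averaged 4.70, 7.08 and 5.37 in the same order (-2.38, adjusted p = 0.00161 by limma). The calls of Akr1c18 and Miox held without each of the 6 arrays. The acute phase protein Saa2, a near copy of Saa1, differed by 4.47 (adjusted p = 0.0222) and Car3 by 3.07 (adjusted p = 0.0379 by limma), and each lost its call in 4 of 6 refits: without JNK1-/- replicate 1 or 3 or JNK1Δhepa replicate 1 or 2.

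The places of the called genes were described from the reference gene table on GRCm38.p6, which was used for chromosomes and the order of genes. Chromosome 7 held 20 of the 118 calls among 1647 tested genes (1.21%), chromosome 3 held 15 of 886 (1.69%), chromosome 14 held 13 of 659 (1.97%) and chromosome 6 held 13 of 1049 (1.24%). Chromosomes 16, 19 and Y held 0. Mapk8 lies on chromosome 14, and of 284 other tested genes within 20 Mb of it 5 were called (1.76%). They were Ddhd1, a phospholipase (difference -0.66), Nkiras1, an inhibitor of NF-kappaB signalling (0.71), the zinc transporter Slc39a2 (0.82), Arhgef40 (0.70) and Rab2b (0.61), and all 5 were called in the same direction at 48 h. Elsewhere on chromosome 14, 7 of 374 genes were called.

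**Figure D5:**
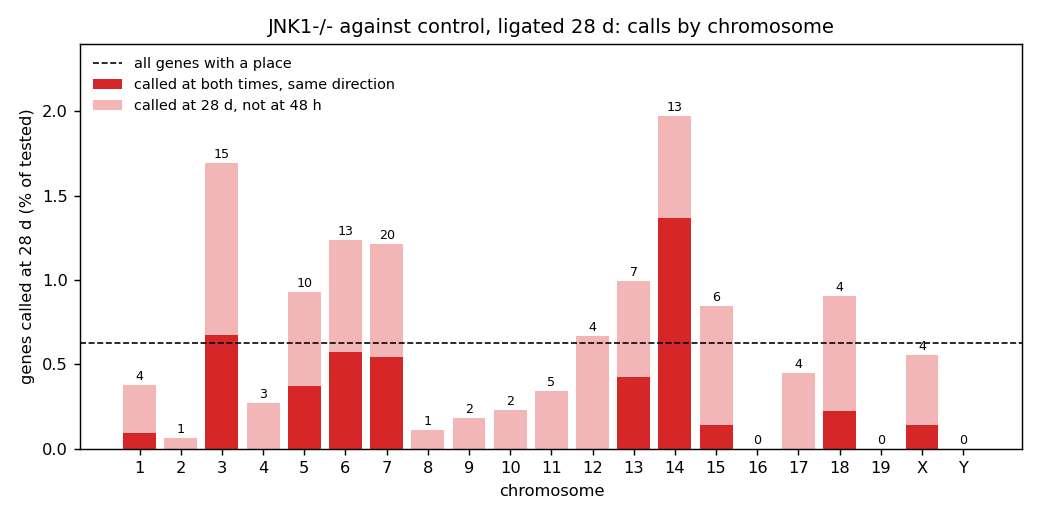
Percent of tested genes called at 28 d on each chromosome (bars, with the number of calls above), split into genes called at both times (dark) and at 28 d without a 48 h call (light). Chromosome 14, which carries Mapk8, had the highest bar at 1.97%, and chromosomes 3, 6 and 7, among others, also stood above the dashed line for all genes with a place.

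Calls lay close to other calls. For 72 of 118 called genes (61.02%) another called gene lay within 5 Mb, and the same held for 36.63% of 18790 tested genes with a place. The share was 73.17% (30 of 41) for the genes called at both times and 54.55% (42 of 77) for the others. Within 10 tested genes of each other, 38 calls formed 15 runs. The longest run was on chromosome 7 and held Rpl13a, Tead2, Cd37, Slc6a16 and Slc6a21 within 14 tested genes, of which the last 4 were called at 48 h too.

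In that run, Cd37, a B cell tetraspanin, read 7.56, 7.44 and 8.08 in JNK1-/- and 6.59, 6.88 and 6.55 in control livers, a rise of 1.02 (adjusted p = 0.00414 by limma). Slc6a21, of the same transporter family as Slc6a16, rose by 0.94 (adjusted p = 0.00141 by limma). Rpl13a, a ribosomal protein gene with many processed copies that could share signal, averaged 10.96 (SD 0.108, n = 3) against 11.67 (SD 0.127, n = 3) and fell by 0.70 on the log2 scale (adjusted p = 0.00174 by limma). Slc39a2, Arhgef40 and Rab2b on chromosome 14 formed another run, with all 3 higher at both times. Nnt, a mitochondrial transhydrogenase that is partly deleted in some C57BL/6 lines, read 10.39, 10.37 and 10.27 in JNK1-/- and 9.45, 9.70 and 9.63 in control livers. The groups did not overlap, the difference was 0.75 (adjusted p = 0.0815 by limma), and a second, dimmer probe set for Nnt differed by 0.02. The part of the line of mice in these runs was not tested.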

How the data were processed

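RNA from whole liver was amplified from 100 ng, per the labels' protocols. The deposited matrix holds log2 intensities computed by the authors with RMA, per the submitters' processing notes; version and settings were not stated. Of 35556 probe sets, 21218 carried 1 gene symbol (1881 several, 12457 none), and the brightest stood for each of 18820 genes; 21185 matched the GRCm38.p6 gene table.

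limma 3.58.1 in R 4.3.3 fitted 8 group means on 24 arrays (16 residual degrees of freedom, prior 3.55), with Benjamini-Hochberg adjustment over all genes. Adjusted p-values are from this model unless stated otherwise. The median SE of a difference was 0.129, limited by the number of arrays. Array correlations ran from 0.961 to 0.997. The fit was also run on simulated data with the same spread in every group, which cannot show how it behaves where a group varies more.

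Named genes were up to 14 per direction with the largest change among 28 d calls with non-overlapping groups, up to 4 per list by p, up to 4 per direction in each other comparison, up to 8 per direction called at both times, called genes within 20 Mb of Mapk8, and Mapk8, Mapk9, Mapk10 and Nnt. Predicted, olfactory, vomeronasal, antibody and T cell receptor genes were left out. The members and lists were chosen with earlier results of these data known. A list's level is the mean of its genes on an array minus their mean on the control sham arrays at 28 d, for arrays of both times. How many of the 33 pathway and 12 marker lists had levels without overlap was not counted.

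Alternatives were quantile normalization, median centring, leaving out the dimmest 25% of probe sets, means of probe sets, trended robust moderation, array weights, the replicate number as a block, a fit on the compared arrays alone, and leaving out each array. Deviations of same-numbered JNK1-/- and control arrays at 28 d correlated at 0.18, 0.08 and 0.50, and those of unlike-numbered arrays at -0.45 to 0.40. The labels do not say what the numbers mark, so they were not treated as pairs. A shared effect of the number was not tested.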

Additional observations from a re-analysis of the deposited data

Results flagged for a closer look

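The difference between JNK1-/- and control livers changed between 48 h and 28 d for 140 genes by the interaction in limma, and 181 genes differed between JNK1-/- and JNK1Δhepa livers at 28 d. Age differed along with time, and line of mice along with mutant, as given above. Among the genes with the largest 28 d changes, the 28 d difference minus the 48 h difference was -1.82 for Cd163, 1.37 for Cfap20dc, 2.79 for Mmd2, 2.03 for Rab3b and 1.98 for Rhbg, with adjusted p-values of 0.0207, 0.0207, 0.00785, 0.0404 and 0.0476. The calls of Rab3b and Rhbg each held in 4 of 12 refits that left out 1 array.

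The widest changes between the times came from genes called at 48 h and not at 28 d. The muscle-type carbonic anhydrase Car3 changed by 5.71 (difference -3.76 at 48 h, 1.95 at 28 d), the methyltransferase Inmt by 3.52, the carboxylesterase Ces1g by 3.31 and the lectin Clec2h by 3.18. In the other direction, Obp2a changed by -3.70, the steroid sulfate carrier Slc10a6 by -3.37, Slc8a1 by -3.08 and the chitinase-like macrophage protein Chil3 by -3.07. Adjusted p-values by limma were 0.0126 for Car3, 0.0217 for Inmt, 0.02 for Ces1g, 0.0226 for Clec2h, 0.0126 for Obp2a, 0.0207 for Slc10a6, 0.00772 for Slc8a1 and 0.0126 for Chil3. The calls of Obp2a and Slc8a1 held without each of the 12 arrays. Those of Car3 and Chil3 were lost without control replicate 1 at 48 h, and those of Inmt, Ces1g, Clec2h and Slc10a6 without that array or 2 or 3 others.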

How the results depend on the processing

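With 3 arrays a group, counts of calls moved widely, while no called gene that is named changed direction under the alternatives tried. Medians of lists without a call did turn, as given for collagens and cholangiocyte genes. Fewer arrays enter some fits, and the cause of the other moves was not tested. For JNK1-/- against control at 28 d (118 genes, 81 higher, 37 lower), array weights gave 300 (135 higher, 165 lower), median centring 187 (154 higher), the 6 arrays alone 1 (1 higher, 0 lower, 1 of at least 2-fold), and the replicate block 115. Leaving out 1 array gave 56 to 413 (33 to 244 higher, 23 to 169 lower, 33 to 114 of at least 2-fold). At 48 h (433, 225 higher, 208 lower), array weights gave 1891 (921 higher, 970 lower), the own arrays 121 (58 higher, 63 lower), and leaving out 1 array 161 to 413 (80 to 180 higher, 77 to 233 lower). For the change between times (140, 78 larger, 62 smaller), array weights gave 614 (322 and 292), centring 259 (202 larger), the own arrays 0 (0 and 0), and leaving out 1 array 16 to 574 (9 to 339 and 7 to 235). Against JNK1Δhepa (181, 107 higher, 74 lower), array weights gave 1047 (566 higher, 481 lower), the own arrays 84 (52 higher, 32 lower), the replicate block 289 (180 higher), and leaving out 1 array 42 to 169 (22 to 105 higher, 20 to 64 lower). Genes called at both times (41) numbered 101 with array weights, 1 on the own arrays, and 25 to 47 without 1 array. With centring, 77.99% of the changes between times were larger at 28 d, against 55.71% as deposited. Quantile normalization, trended moderation, the filter on dim probe sets and means of probe sets kept each of these counts within 1.5 times. The labels do not say what the replicate numbers mark, so the block is given here alone. With the replicate block Cebpa, Ghr and Bmp10 were not called (adjusted p = 0.0532, 0.0602 and 0.0625 by limma), and F13b was (0.0482).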
